A study of Mus musculus with 10 samples.

Results

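Promoter contacts of haematopoietic stem and progenitor cells (HSPCs) carrying Npm1c alone were compared with those of HSPCs carrying Flt3-ITD alone, in 2 libraries of each, 4 of the 10 libraries of the series. The Npm1c mice had the genotype Npm1flox-cA/+;Mx1-Cre+ and the Flt3-ITD mice Flt3ITD/+, all on C57BL/6. The wild-type (WT) HSPCs and the double-mutant (DM, Npm1flox-cA/+;Flt3ITD/+;Mx1-Cre+) HSPCs, also with 2 libraries each, served to choose the contacts and are given beside the results, and 2 neutrophil libraries were not used. All HSPCs were lineage-negative bone marrow cells. Mx1-Cre is a transgene under an interferon-inducible promoter that is active in blood cells and in other tissues, and it was present in the Npm1c and DM mice only, so an effect of Cre or of its induction cannot be told apart from that of Npm1c in this comparison. The labels give no age or sex, and they call the replicates biological without saying whether mice were pooled.

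NPM1 is a nucleolar protein that shuttles between nucleolus, nucleus and cytoplasm, and the Npm1c mutation creates an export signal that holds the protein in the cytoplasm. In blood progenitors Npm1c is known for sustained expression of Hox genes and their cofactor Meis1. FLT3 is a receptor tyrosine kinase of early progenitors, and an internal tandem duplication (ITD) next to its membrane makes it signal without ligand through STAT5, RAS-ERK and PI3K. Both mutations recur together in acute myeloid leukaemia.

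Promoter-capture Hi-C joins chromatin fragments that lie close together in the nucleus and then pulls down those that carry a promoter. Each deposited row pairs a captured HindIII fragment (the bait) with another HindIII fragment (the other end) and holds an interaction score per library, which is never negative. A pair was on the list when any HSPC group had scores of 5 or more in both its libraries. Of 88421 listed pairs on autosomes and X, 36950 were at 5 or more in both Npm1c libraries and 45272 in both Flt3-ITD libraries. Because pairs that a single mutant brought onto the list are high in it by selection, the comparison rests on the 59549 pairs (67.3%) at 5 or more in both replicates of WT or DM HSPCs: 16394 from WT only, 28715 from DM only and 14440 from both. Levels and differences below are on the log2(score + 1) scale unless a plain score is named. Differences are Npm1c minus Flt3-ITD.

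The lineage-negative label could be checked only through contacts, which are not expression. Kit, Cd34 and the T cell genes Cd3e and Lck had no bait with such a pair. Contacts of the neutrophil gene Ngp, over 11 pairs, were at 2.48 and 2.62 in the Npm1c libraries and at 2.53 and 2.66 in the Flt3-ITD libraries. Those of S100a8, over 12 pairs, were at 2.53 and 2.43 against 2.62 and 2.55. The groups overlapped for Ngp, and for S100a8 both Npm1c libraries lay below both Flt3-ITD libraries (difference -0.11, adjusted p = 0.888). Markers with fewer pairs differed in both directions. Camp, another neutrophil gene, had 1 pair, at 2.23 and 2.17 in Npm1c and 3.36 and 2.62 in Flt3-ITD. The progenitor factor Runx1 had 4 pairs, at 1.39 and 1.68 against 1.91 and 1.97. The haemoglobin gene Hbb-bs had 1 pair, at 2.95 and 2.85 against 2.50 and 2.17. None of these 3 overlapped between the groups, and their part in the results was not tested.

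Scores were lower in Npm1c than in Flt3-ITD HSPCs over the whole set of pairs, and the Npm1c replicates differed more from each other than the groups did. At 5 or more were 47.1% and 57.7% of the pairs in the Npm1c libraries, and 59.6% and 60.2% in the Flt3-ITD libraries. Both Npm1c libraries lay below both Flt3-ITD libraries. The means differed by -7.49 percentage points (52.4% ± 7.51 against 59.9% ± 0.46, SD, n = 2 each; two-sided exact permutation test, p = 0.333, the smallest that 2 against 2 libraries allow). Without Npm1c replicate 1 the difference was -2.18 points, and without Npm1c replicate 2 it was -12.8 points. The first Npm1c library correlated less with the second (Spearman 0.531 over the 59549 pairs) than the second did with either Flt3-ITD library (0.595 and 0.605). The Flt3-ITD libraries correlated at 0.588 with each other. These correlations are across pairs, which share baits and are not independent.

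The size of the difference depended on the group that brought the pair onto the list. Of the pairs that only DM brought onto the list, 35.1% and 45.7% were at 5 or more in the Npm1c libraries, and 50.7% and 52.9% in the Flt3-ITD libraries. Of the pairs that only WT brought, the shares were 42.9% and 53.1% in Npm1c and 50.2% and 48.5% in Flt3-ITD. Of the pairs that WT and DM both brought, they were 75.8% and 86.8% in Npm1c and 87.9% and 88.1% in Flt3-ITD, a difference of -6.71 points. The groups did not overlap for the DM-only pairs and for those from both, and overlapped for the WT-only pairs. The difference within a library between DM-only and WT-only pairs removes a shift common to the whole library. The mean level of DM-only pairs minus that of WT-only pairs was -0.15 and -0.13 in the Npm1c libraries, and 0.01 and 0.06 in the Flt3-ITD libraries. On this measure both Flt3-ITD libraries lay above both Npm1c libraries, by 0.17 (exact permutation test, p = 0.333, the smallest possible), and by 0.15 to 0.19 with any 1 of the 4 libraries left out. WT and DM levels are not set beside these values, since those groups chose the pairs.

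**Figure D1:**
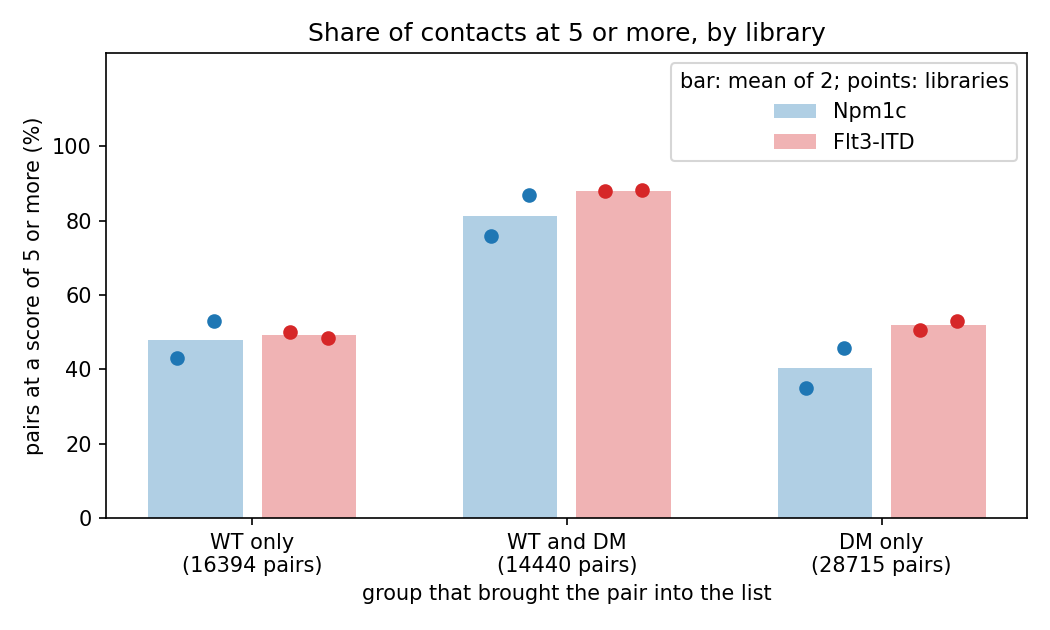
Share of promoter contacts (%) at a score of 5 or more in each Npm1c and Flt3-ITD library, by the group that brought the pair onto the list; points are libraries and bars are means of 2. For DM-only pairs the Npm1c points (35.1 and 45.7) lie below the Flt3-ITD points (50.7 and 52.9), for pairs from both groups they lie below by -6.71 points in the mean, and for WT-only pairs they overlap.

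Pairs that crossed 5 were counted in the same classes. Among pairs from DM only, 1709 were at 5 or more in both Flt3-ITD libraries and under 5 in both Npm1c libraries, and 456 were the reverse. Among pairs from WT only, the counts were 568 and 488, and among pairs from both they were 372 and 127. Over all 59549 pairs the counts were 2649 (4.45%) and 1071 (1.80%), and after the libraries were given the same distribution (quantile normalization) they were 1797 and 1792.

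No promoter passed the test, in either direction. A promoter was the mean level over its bait's pairs, tested with limma for the 1704 baits with at least 10 pairs. At an adjusted p under 0.05, 0 were higher and 0 lower in Npm1c (0% of 1704 each), and the smallest adjusted p was 0.272. At an unadjusted p under 0.05, 4 promoters were higher (0.235%) and 144 were lower (8.45%). The median difference was -0.14 (interquartile range -0.28 to -0.00), and 75.6% of promoters had a negative difference. Both Npm1c libraries lay below both Flt3-ITD libraries at 584 promoters (34.3%) and above them at 90 (5.28%). After quantile normalization the median difference was -0.00, and the unadjusted counts were 48 higher and 74 lower with a smallest adjusted p of 0.0946. The direction of a small difference therefore depends on the scaling, and 76 promoters had an unadjusted p under 0.05 on both scales. The leave-out fits moved the count of promoters past the adjusted threshold: leaving out the first or second Npm1c library gave 10 or 240, and leaving out the first or second Flt3-ITD library gave 4 or 1, where the lone library is assumed to vary like the other group.

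**Figure D2:**
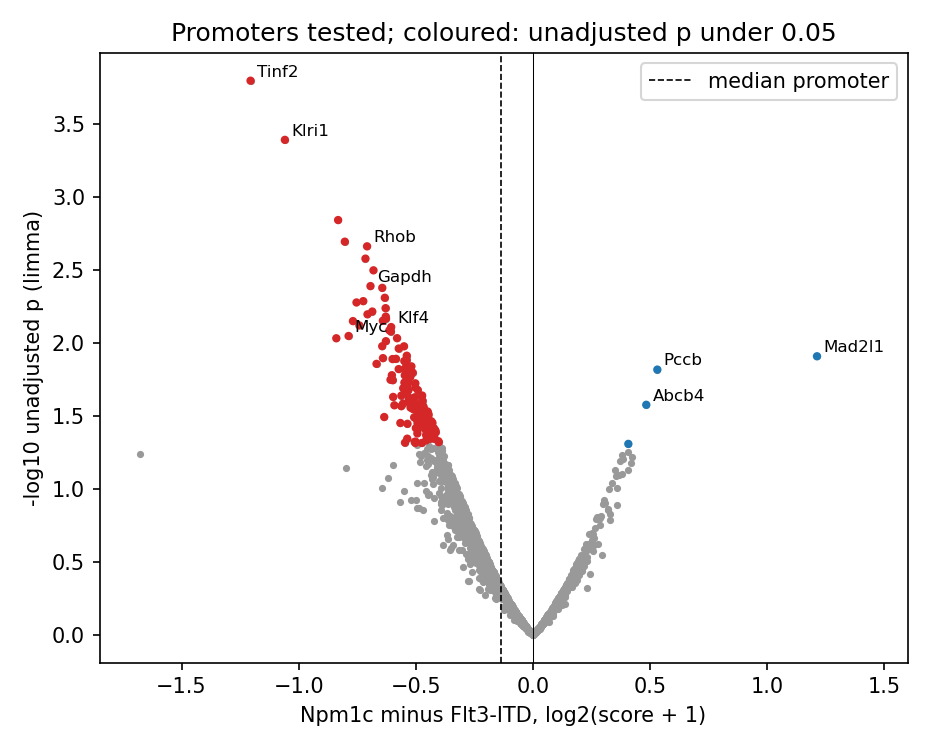
Difference in promoter level between Npm1c and Flt3-ITD (x axis, log2(score + 1)) against -log10 of limma's unadjusted p (y axis) for 1704 promoters; red and blue points have an unadjusted p under 0.05 and are lower or higher in Npm1c, and the dashed line is the median promoter at -0.14. Of the coloured points 144 are lower and 4 are higher.

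The promoters named next have the 12 lowest unadjusted p in each direction among baits with a gene symbol, and none passed the adjusted test. Since they were chosen by p, the separation of their groups is part of the choice. The lowest p belonged to Tinf2, which encodes TIN2, a protein of the shelterin complex at telomeres (bait chr14:55681070-55692430, mm10). Its level over 11 pairs was 1.50 and 1.86 in the Npm1c libraries, 2.66 and 3.11 in Flt3-ITD, 2.58 and 2.65 in WT, and 2.59 and 2.80 in DM. Both Npm1c libraries lay below the 6 others. Of the pairs, 6 came from WT only, 3 from DM only and 2 from both, so the WT and DM levels are selected. The difference from Flt3-ITD was -1.21 (SE 0.22, adjusted p = 0.272), and it was -1.08 with an adjusted p of 0.0946 after quantile normalization. With all 8 HSPC libraries in the fit its adjusted p was 0.0482. In that fit the WT and DM values, which chose the pairs, enter the spread. With the median over pairs, in the 4 single-mutant libraries, the adjusted p was 0.0423. Of its pairs, 8 were at 5 or more in both Flt3-ITD libraries and 2 in both Npm1c libraries. Contacts with the fragment of Ipo4 and Tm9sf1, 48.1 kb away, scored 3.91 and 8.98 in Npm1c and 13.5 and 15.5 in Flt3-ITD. The contact with the fragment of Ltb4r1, a leukotriene receptor gene, did not share the difference, at 18.6 and 15.8 in Npm1c and 13.6 and 18.2 in Flt3-ITD. Pairs at 0 in both libraries of 1 group and at 5 or more in both of the other were also left out. Without them the difference at Tinf2 was -0.96 (adjusted p = 0.543).

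Klri1, which encodes a lectin-like receptor of natural killer cells (chr6:129716145-129719556), had the next lowest p. Its level over 13 pairs was 1.57 and 1.28 in Npm1c and 2.25 and 2.72 in Flt3-ITD, with 1.94 and 1.44 in WT and 3.09 and 2.99 in DM. The difference was -1.06 (SE 0.21, adjusted p = 0.346). Its pairs spanned 129 to 1701 kb with a median of 1643 kb, and 11 of the 13 came from DM only. Klf4, a zinc finger factor of monocyte development (chr4:55531813-55535766), had a like order: 1.88 and 1.77 in Npm1c, 2.54 and 2.31 in Flt3-ITD, 1.63 and 1.54 in WT, and 3.28 and 3.25 in DM. Here 10 of 11 pairs came from DM only, which selects for a high DM level. The difference between the single mutants was -0.60 (SE 0.19, adjusted p = 0.531). Fcrls, an Fc receptor-like gene of the macrophage lineage, and Sardh, which encodes sarcosine dehydrogenase, had all their pairs from DM only. Fcrls was at 1.71 and 1.59 in Npm1c and 2.27 and 2.47 in Flt3-ITD. Sardh was at 2.01 and 1.86 against 2.59 and 2.64. At Mysm1, a histone H2A deubiquitinase needed in blood stem cells, the levels were 1.83 and 2.05 against 2.56 and 2.93. At these 5 promoters both Flt3-ITD libraries lay above both Npm1c libraries and below both DM libraries, whose level is selected.

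Rhob and Gapdh showed another order, with Flt3-ITD above all other groups. Rhob, a small GTPase (chr12:8498206-8500899), was at 2.87 and 2.87 in Npm1c, 3.57 and 3.59 in Flt3-ITD, 3.29 and 2.86 in WT and 3.04 and 2.73 in DM, over 34 pairs (difference -0.71, SE 0.18, adjusted p = 0.531). Gapdh, the glycolytic enzyme often used as a housekeeping reference (chr6:125163903-125168960), was at 2.73 and 2.81 in Npm1c, 3.30 and 3.63 in Flt3-ITD, 2.92 and 3.02 in WT and 2.76 and 2.56 in DM, over 22 pairs (difference -0.69, SE 0.19, adjusted p = 0.531). All 22 Gapdh pairs were at 5 or more in both Flt3-ITD libraries, against 13 in both Npm1c libraries. The other named promoters lower in Npm1c were Zfp334, Nme8, Olfr1423 and Sec23a, with differences of -0.71, -0.63, -0.64 and -0.77.

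Higher in Npm1c were fewer promoters on the scale of the deposited scores, and the sizes depended on the scaling. On that scale only Mad2l1, Pccb, Abcb4 and Sh3kbp1 had an unadjusted p under 0.05 in the limma test. The other named promoters had an unadjusted p of 0.059 (Fads3) to 0.079 (Wdr60). After quantile normalization the 11 other than Mad2l1 differed by 0.48 at Gm8439 to 0.67 at Pccb, and the lower promoters by -0.40 at Nme8 to -0.64 at Sec23a, apart from Klri1 at -0.91 and Tinf2. Pccb, the beta subunit of propionyl-CoA carboxylase (chr9:101032225-101038380), was at 2.95 and 2.86 in Npm1c and 2.26 and 2.48 in Flt3-ITD, with 2.94 and 2.69 in WT and 2.50 and 2.59 in DM (difference 0.53, SE 0.19, adjusted p = 0.531). Abcb4, a phospholipid transporter of the ABC family (chr5:8893093-8898937), was at 2.58 and 2.71 against 2.03 and 2.29, with 3.06 and 3.04 in WT (difference 0.48, SE 0.19, adjusted p = 0.531). All 13 of its pairs came from WT only, so the WT level is selected. Sh3kbp1, an adaptor of receptor endocytosis on X, was at 2.91 and 3.09 against 2.52 and 2.65. Hdac6, a cytoplasmic deacetylase also on X, was at 2.68 and 2.75 against 2.28 and 2.41, and Pcsk1n, its neighbour on X, at 2.61 and 3.05 against 2.45 and 2.36. The others were Fads3, Atn1 with Grcc10, Csgalnact1, Otud4 with Gm51579, Gm8439 and Wdr60, with differences from 0.35 at Gm8439 to 0.42 at Csgalnact1. Leaving out a single library took some of these differences far down: without Flt3-ITD replicate 1 Otud4 was at 0.17 and Csgalnact1 at 0.22, without Npm1c replicate 1 Wdr60 was at 0.22, and without Npm1c replicate 2 Pcsk1n was at 0.20. With the median over pairs Wdr60 was at 0.14. The pairs of the 12 named higher promoters came mostly from WT only (105 of 172, 61.0%), against 7833 of 31837 pairs (24.6%) over all promoters tested. Those of the 12 named lower promoters came mostly from DM only (103 of 178, 57.9%, against 46.2% over all promoters). For the wider set of 144 lower promoters at an unadjusted p under 0.05, the DM-only share was 70.3% (1992 of 2832).

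**Figure D3:**
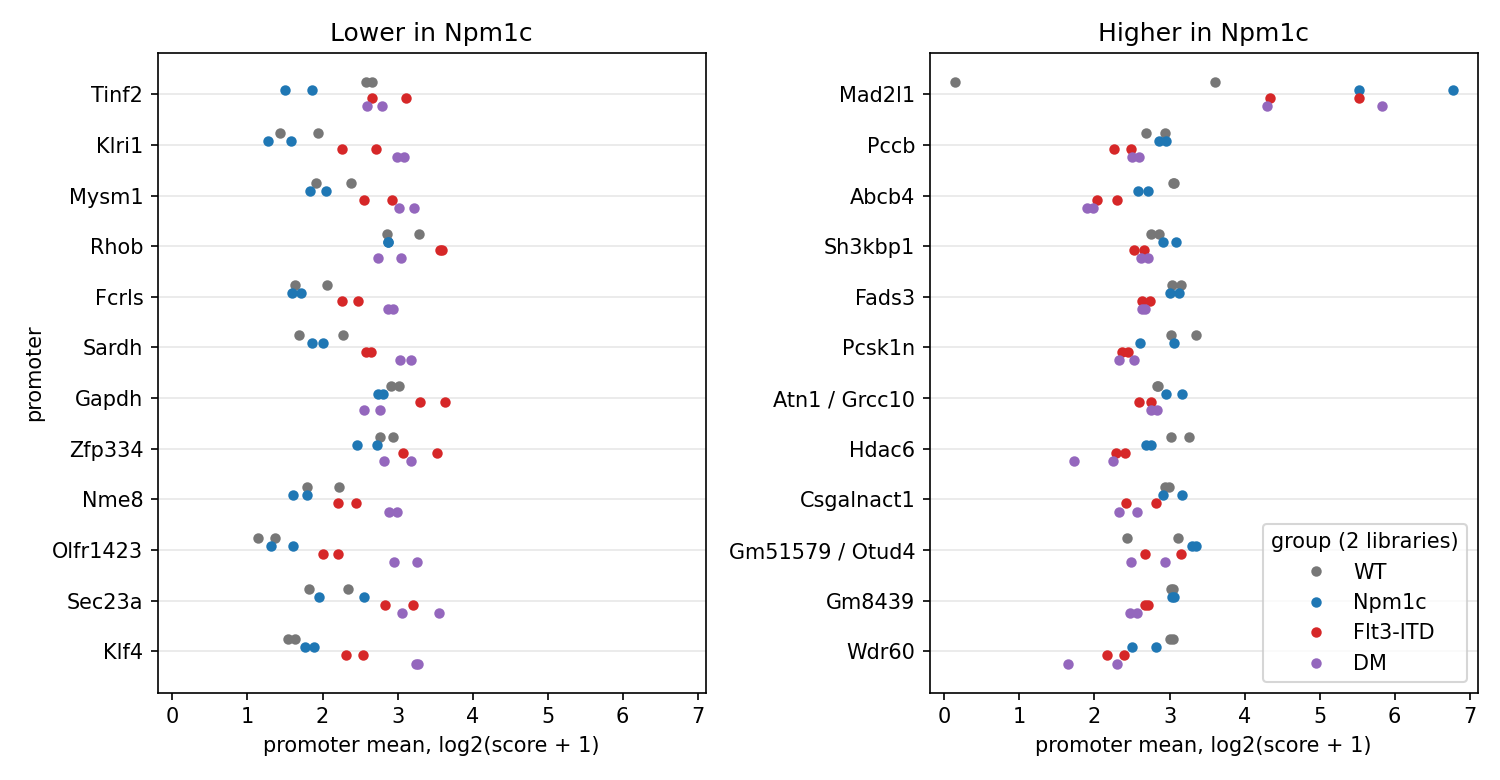
Level of the 12 named promoters in each direction in all 8 HSPC libraries (x axis, mean log2(score + 1) over the bait's pairs; 2 points per group). The promoters were chosen by p, so the separation of Npm1c and Flt3-ITD points is part of the choice, and WT and DM points are given although these groups chose the pairs.

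Mad2l1, a component of the spindle checkpoint (chr6:66534905-66540307), was the exception, since its contacts lay mainly on another chromosome. Of its 33 listed pairs, 27 joined it to fragments within 580 kb of chromosome 11 (46130282 to 46709935), and 10 of the 11 pairs tested were of this kind. The median score of those 27 pairs was 24.4 and 54.4 in Npm1c, 20.0 and 3.93 in Flt3-ITD, 20.0 and 0 in DM, and 0 and 0 in WT. The 10 tested among them came from DM only, and Npm1c, alone or with Flt3-ITD, brought the rest onto the list. WT brought none of them. The medians are therefore high in Npm1c and low in WT in part by selection. In the second WT library all 27 were at 0. Its level was 5.52 and 6.77 in Npm1c and 5.53 and 4.34 in Flt3-ITD, so the groups overlapped, and the difference was 1.21 (SE 0.41, adjusted p = 0.531). Leaving out the first or second Npm1c library gave 1.84 or 0.59, and leaving out the first or second Flt3-ITD library gave 1.81 or 0.62. All but the last of these fits had an adjusted p under 0.05. What lies behind these contacts was not tested.

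The 250 bases before the RefSeq start site (GRCm38.p6) are shown for promoters of each order. The orders are below all other groups in Npm1c (Tinf2), low in Npm1c with pairs from DM (Klri1), high in Flt3-ITD alone (Rhob) and high in Npm1c (Pccb and Abcb4). The WT and DM levels in these orders are selected. Capitals mark matches to TTCNNNGAA, the palindrome bound by STAT5, or to TGANTCA, the AP-1 motif; both read the same on either strand, and no matches of the pair overlapped. The windows are chr14:55681818-55682067 (minus strand), chr6:129717133-129717382 (minus), chr12:8500010-8500259 (minus), chr9:101034885-101035134 (minus) and chr5:8893471-8893720 (plus).
Tinf2: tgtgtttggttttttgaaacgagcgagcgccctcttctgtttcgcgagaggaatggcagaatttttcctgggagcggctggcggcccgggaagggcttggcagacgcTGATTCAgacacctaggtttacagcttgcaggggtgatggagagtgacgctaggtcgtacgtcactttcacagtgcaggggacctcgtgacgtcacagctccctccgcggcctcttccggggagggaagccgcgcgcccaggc
Klri1: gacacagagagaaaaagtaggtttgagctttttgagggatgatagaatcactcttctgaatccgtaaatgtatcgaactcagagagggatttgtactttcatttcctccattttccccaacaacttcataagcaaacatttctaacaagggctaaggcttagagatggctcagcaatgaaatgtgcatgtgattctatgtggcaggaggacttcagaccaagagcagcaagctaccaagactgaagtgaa
Rhob: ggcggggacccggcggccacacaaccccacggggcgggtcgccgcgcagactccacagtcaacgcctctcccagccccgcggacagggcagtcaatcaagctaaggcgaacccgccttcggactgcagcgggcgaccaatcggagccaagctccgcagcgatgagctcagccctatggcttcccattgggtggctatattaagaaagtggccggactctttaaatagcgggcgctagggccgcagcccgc
Pccb: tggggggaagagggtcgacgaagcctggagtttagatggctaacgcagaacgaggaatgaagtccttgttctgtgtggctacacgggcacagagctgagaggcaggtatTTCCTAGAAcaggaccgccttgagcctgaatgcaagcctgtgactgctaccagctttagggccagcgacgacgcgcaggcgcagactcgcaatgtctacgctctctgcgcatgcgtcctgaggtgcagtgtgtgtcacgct
Abcb4: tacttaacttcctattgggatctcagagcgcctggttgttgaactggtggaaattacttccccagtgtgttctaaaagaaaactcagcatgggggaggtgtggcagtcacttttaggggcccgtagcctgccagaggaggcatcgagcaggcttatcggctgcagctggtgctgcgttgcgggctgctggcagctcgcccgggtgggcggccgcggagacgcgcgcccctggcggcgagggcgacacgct

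Among these, the Tinf2 window held 1 AP-1 match and the Pccb window 1 STAT match. Of the 12 named promoters lower in Npm1c, all of which had a RefSeq window, 0 held TTCNNNGAA and 1 held TGANTCA. Of the 11 higher in Npm1c with a window, 1 held each motif. The shares over 21044 protein-coding promoters were 6.64% for TTCNNNGAA and 6.17% for TGANTCA, and a match is a description of the letters, not a site.

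Genes that respond to STAT5, the transcription factor that signalling Flt3-ITD activates, had 8 promoters tested, and 0 passed the adjusted test. Of these, 6 had a negative difference, where 75.6% of all promoters did. The median was -0.24 (-0.11 after quantile normalization), against -0.14 (-0.00) over all promoters. Myc, the growth-driving transcription factor (chr15:61984173-61985527), was at 2.17 and 2.70 in Npm1c and 2.91 and 3.53 in Flt3-ITD over 17 pairs, with 2.12 and 1.19 in WT and 3.26 and 3.41 in DM. Its groups did not overlap (difference -0.79, SE 0.25, unadjusted p = 0.009, adjusted p = 0.531). Leaving out the first Npm1c library brought this to -0.52, and leaving out the second Flt3-ITD library to -0.48, while the other leave-outs gave -1.05 and -1.10. The Myc pairs lay 1625 to 1731 kb from the bait. Of these 17 pairs, 16 were on the list through DM and 2 through WT. The low WT and high DM levels of Myc are therefore selected. Ccnd1, which encodes cyclin D1, was at 1.98 and 2.51 against 2.74 and 2.88 (difference -0.56, adjusted p = 0.531). Cish, the feedback inhibitor of cytokine receptors induced by STAT5, was at 2.85 and 2.94 against 3.20 and 3.27 (difference -0.34, adjusted p = 0.632). Bcl2, the survival factor, had a difference of -0.30, while Bcl2l1 at 0.07 and Pim2 at 0.12, in a bait shared with Slc35a2, were the highest.

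Immediate early genes and feedback regulators of ERK, the other readout of active FLT3, had 9 promoters tested, all with a negative difference and none past the adjusted test (median -0.30, -0.16 after quantile normalization). The lowest was Dusp5, a phosphatase that inactivates ERK in the nucleus, at 2.02 and 2.35 in Npm1c and 2.61 and 2.84 in Flt3-ITD (difference -0.54, adjusted p = 0.531). Egr3 had a difference of -0.48, Fos of -0.42 and Jun of -0.35. The highest was Spred1, an inhibitor of RAS signalling, at -0.08, which was 0.04 after quantile normalization. Since 75.6% of all promoters were negative, the shared sign is to be read against that share.

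For Hox genes and cofactors, the genes that Npm1c is known to sustain, 3 promoters could be tested and 0 passed. The bait of Hoxa3 and Hoxa7 was at 2.60 and 2.78 in Npm1c and 2.37 and 2.83 in Flt3-ITD (difference 0.08). Hoxb8 was at 2.62 and 2.65 against 2.78 and 2.80 (difference -0.16, -0.03 after quantile normalization). The list median was -0.11, near that of all promoters. Meis1 had 5 pairs, too few for the test, with levels of 2.51 and 2.67 in Npm1c and 2.78 and 2.93 in Flt3-ITD. Of the mutated genes, Npm1 had no bait among the pairs, as had Hoxa9, and Flt3 had 2 pairs, at 1.92 and 1.67 in Npm1c and 1.83 and 1.58 in Flt3-ITD, so the groups overlapped.

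Of the lineage genes, 0 were called in any list. The 7 myeloid promoters were all negative, where 75.6% of all promoters were, with a median of -0.27 (-0.15 after quantile normalization), from Klf4 at -0.60 to Ngp at -0.05. Over the 19 myeloid baits with any pair, 14 were negative and the median was -0.20. Of all 10637 baits with any pair, 6933 were negative. Cd93, a C-type lectin-like receptor of myeloid progenitors, was at 2.12 and 2.16 in Npm1c and 2.53 and 2.58 in Flt3-ITD (difference -0.42, adjusted p = 0.531). Of the 4 erythroid and megakaryocyte promoters 1 was negative, and the median was 0.23 (0.35 after quantile normalization). Slc40a1, the iron exporter ferroportin, and Gp1ba, a platelet receptor subunit, each differed by 0.23. Car2, a carbonic anhydrase of red cells, differed by -0.11. Over the 13 baits of this list with any pair the median was 0.03 with 6 negative, against -0.11 over all 10637 such baits. Klf1, the master transcription factor of red cells, had 8 pairs, too few for the test, at 2.61 and 2.69 in Npm1c and 3.10 and 2.91 in Flt3-ITD, opposite to the median of the 4. The 4 stem and progenitor promoters were negative (median -0.31), from Lyl1 at -0.16 to Hlf at -0.38. Over the 14 baits of that list with any pair, 10 were negative (median -0.23). Different proportions of progenitor types in the lineage-negative fraction cannot be told apart from contacts that differ per cell.

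The remaining lists had few members tested. Of 4 cell cycle promoters, Mad2l1 was highest and Mcm5, a subunit of the replicative helicase, lowest at -0.39. Of 4 housekeeping promoters, all were negative, where 75.6% of all promoters were (median -0.37), from Tbp at -0.15 to Gapdh at -0.69. Of the 2 nucleolar promoters, Nop9, in a bait shared with Dhrs1, differed by -0.48 and Ubtf, the RNA polymerase I factor, by 0.01. The 3 interferon promoters had a median of -0.14, from Igtp at -0.07 to Irgm1 at -0.31; these genes answer to the kind of signal that induces Mx1-Cre. Of lymphoid genes, Ikzf2 differed by 0.23 and Klrb1c by -0.18. Of cohesin and chromatin genes, Wapl differed by 0.18 and Pds5a by 0.04, and the 1 silent tissue gene tested, Myod1, by 0.12.

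**Figure D4:**
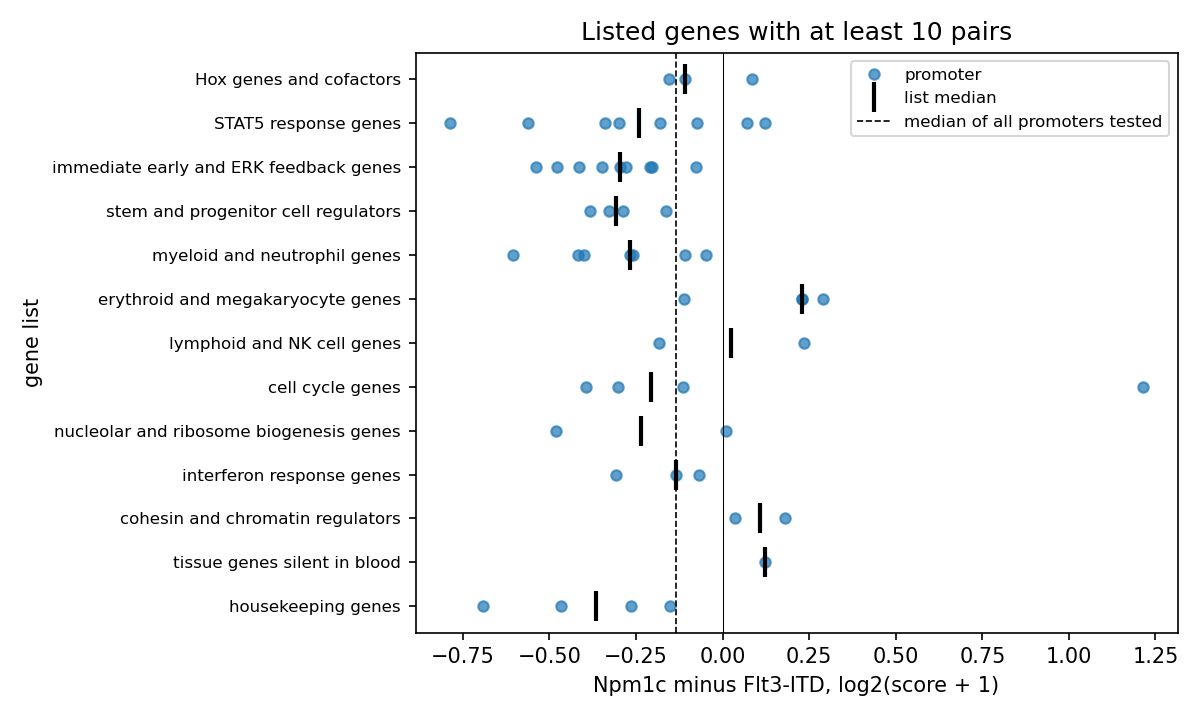
Difference (x axis, Npm1c minus Flt3-ITD, log2(score + 1)) for each promoter of 13 gene lists with at least 10 pairs; ticks are list medians and the dashed line is the median of all 1704 promoters (-0.14). The 9 immediate early and ERK feedback promoters and the 7 myeloid promoters lie below 0, and 3 of the 4 erythroid and megakaryocyte promoters lie above it.

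Some promoters with an unadjusted p under 0.05 were neighbours. In the megabase chr2:148000001-149000000 all 3 promoters tested were of this kind and lower in Npm1c. These were Sstr4, a somatostatin receptor gene, at 2.41 and 2.47 against 2.99 and 2.99, Thbd, which encodes thrombomodulin, at 2.44 and 2.63 against 2.80 and 3.24, and Cd93. In chr7:30000001-31000000, 4 of 18 promoters were lower at this threshold, Krtdap and Ffar1 among them with differences of -0.63 and -0.60, against 8.45% over all promoters. In chr6:125000001-126000000, 4 of 9 promoters were lower at this threshold, Gapdh among them. These megabases were picked with their counts known. Neighbouring baits can share other ends, so they are not independent.

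Single pairs gave the same result as promoters. Of the 59549 pairs, 0 were higher and 0 lower at an adjusted p under 0.05 (0% each), with a smallest adjusted p of 0.377. At an unadjusted p under 0.05, 678 were higher in Npm1c (1.14%) and 2190 lower (3.68%). The lowest p belonged to a contact of Rpp21, a subunit of ribonuclease P (bait chr17:36256736-36258775), with a fragment on another chromosome (chr7:115527381-115528861). It scored 0 and 0 in Npm1c and in WT, 32.9 and 23.5 in Flt3-ITD, and 18.7 and 8.11 in DM. The contact of Styk1, a pseudokinase gene of the natural killer gene region, with a fragment 1385 kb away scored 0 and 0 in Npm1c, 10.1 and 12.8 in Flt3-ITD, 2.23 and 0 in WT, and 6.03 and 8.29 in DM. In these contacts Flt3-ITD had a score where Npm1c was listed at 0, and this separation is part of the choice by p. Both contacts came from DM only, so the DM scores are selected. With all 8 HSPC libraries in the fit, 5 pairs passed the adjusted test, all lower in Npm1c, those of Rpp21 and of Frmd8 with Tigd3 among them. The WT and DM values, which chose the pairs, enter the spread in that fit.

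Several of the leading contacts shared an other end that was at 0 for a whole group. Tinf2, Cideb and the bait of Dhrs1 and Nop9 each had a contact with the fragment of Rec8, a meiotic cohesin subunit (chr14:55613378-55623374). For Tinf2 it scored 0 and 0 in Npm1c, 12.4 and 11.3 in Flt3-ITD, 8.29 and 0 in WT, and 10.5 and 9.36 in DM. All 3 pairs were at 0 in both Npm1c libraries and in the second WT library. When the same Rec8 fragment was the bait, its 2 pairs averaged 3.73 and 3.76 in Npm1c and 5.65 and 4.32 in Flt3-ITD, so the fragment had scores as a bait in the Npm1c libraries. The Tigd3 fragment was at 0 in both Npm1c libraries in 4 of 4 pairs, among them that of Frmd8, at 11.8 and 9.91 in Flt3-ITD and 7.79 and 7.97 in WT. As a bait it scored 4.67 and 6.18 in Npm1c. The Wdr53 fragment was at 0 in both Npm1c libraries in 5 of 5 pairs, and as a bait it scored 7.83 and 4.05.

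The reverse was seen for Krtcap2, which encodes a subunit of the oligosaccharyltransferase complex. All 4 pairs with its fragment (chr3:89246039-89249278) were at 0 in both Flt3-ITD libraries and in the first DM library. The contact of Pklr, the pyruvate kinase of liver and red cells, with this fragment scored 7.90 and 7.93 in Npm1c, 8.01 and 10.8 in WT, and 0 and 5.86 in DM. The contact of Cfap77 with the fragment of Ddx31 and Gtf3c4 scored 13.8 and 13.0 in Npm1c, 0 and 0 in Flt3-ITD, 14.4 and 9.78 in WT, and 15.3 and 0 in DM. Over all listed pairs, 283 were at 0 in both Npm1c libraries and at 5 or more in both Flt3-ITD libraries, and 159 the reverse. These counts include pairs that only the higher group brought onto the list. Flt3-ITD alone brought 13609 pairs and Npm1c alone 10765, so the counts follow that selection in part. What sets a score to exactly 0 for an other end in whole libraries was not tested. The bait of H2bc14 and H3c10, in a histone gene cluster, was at 0 in all its 11 pairs in Npm1c replicate 1 and at 3.63 in replicate 2, against 3.25 and 3.73 in Flt3-ITD; it was the only tested bait at 0 throughout in any of the 8 HSPC libraries.

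When all 88421 listed pairs were tested in 1 fit of the 8 HSPC libraries, 130 were higher in Npm1c (0.147%) and 246 lower (0.278%), at an adjusted p under 0.05. This count follows the selection: 207 of the lower pairs were among the 13609 that Flt3-ITD alone brought onto the list, and 121 of the higher pairs were among the 10765 that Npm1c alone brought. Among pairs that WT or DM brought, 9 were higher and 38 lower, and among the 4498 that both single mutants but neither WT nor DM brought, 0 were higher and 1 was lower. Far contacts made up 289 of the 376 (76.9%), at over 1 Mb, against 5.12% of the list. With the 4 single-mutant libraries alone in the fit the count was 0, and 7787 pairs had an unadjusted p under 0.05 in the fit of 8. Leaving out the first Npm1c library or either Flt3-ITD library also gave 0. The count is given as a description of the list.

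Over distance from the bait, the replicates of a group spread widely. For pairs under 100 kb the median level was 2.63 and 2.77 in Npm1c and 2.81 and 2.78 in Flt3-ITD. For pairs over 1 Mb it was 1.72 and 2.62 against 2.35 and 2.76, so the replicates within a group differed as much as the groups. The far minus the near median differed between the groups by -0.29 (exact permutation test, p = 0.667), and by 0.093 without Npm1c replicate 1.

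Contacts on X departed from those on every autosome. The median difference was -0.17 to -0.09 on the 19 autosomes and 0.07 on X. The median level of the 937 X pairs minus that of autosomal pairs was -0.07 and -0.09 in the Npm1c libraries and -0.28 and -0.25 in the Flt3-ITD libraries, with 0.08 and 0.22 in WT and -0.28 and -0.23 in DM. Over all X pairs Npm1c lay between WT and Flt3-ITD, and the Flt3-ITD and DM libraries overlapped. WT brought many of these pairs onto the list: 539 of the 937 came from WT only, against 16394 of all 59549 pairs. The WT level on X is therefore affected by selection. Npm1c also lay between WT and Flt3-ITD in X pairs from WT only and in those from both. In the 243 X pairs from DM only, Npm1c (0.074 and 0.076) lay within the WT range (-0.008 and 0.082). The single mutants differed by 0.18 (exact permutation test, p = 0.333, the smallest possible) and by 0.20 after quantile normalization. Within pairs from WT only, DM only and both, which DM and WT had chosen, the differences were 0.10, 0.18 and 0.20, with no overlap between the single mutants in any. The labels give no sex for the mice, and what lies behind this difference was not tested.

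**Figure D5:**
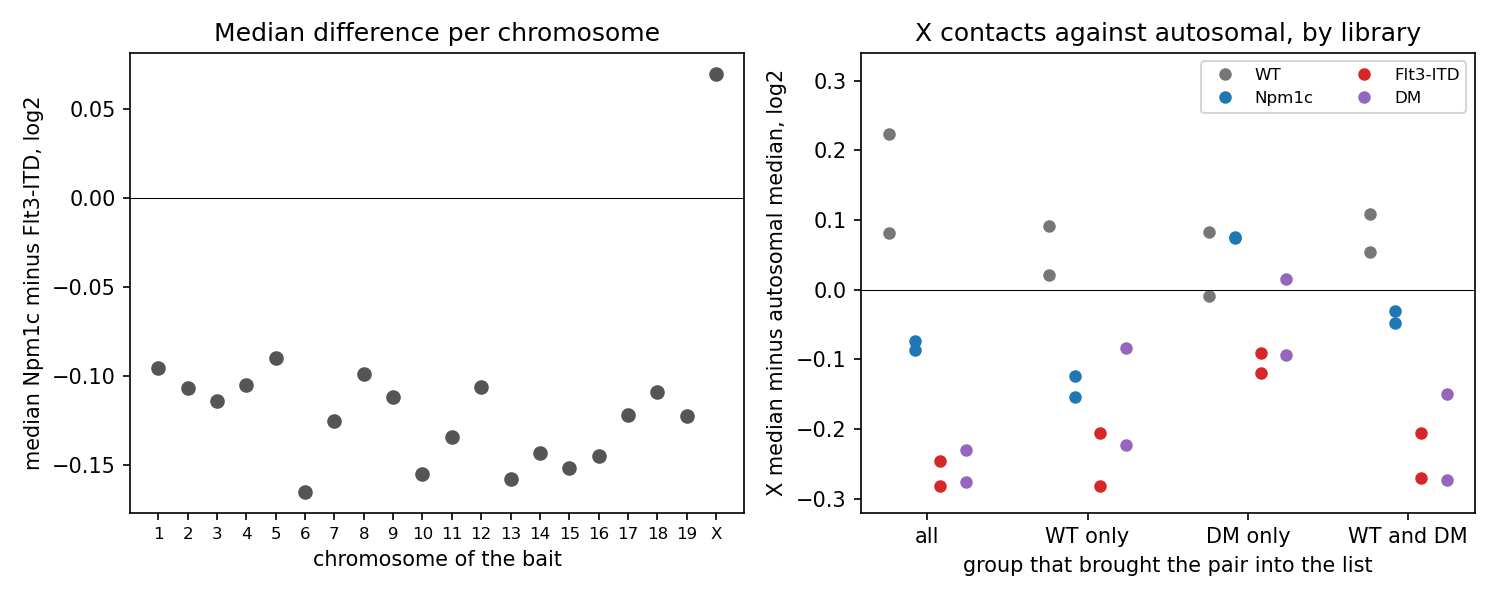
Left: median difference (Npm1c minus Flt3-ITD, log2(score + 1)) per chromosome of the bait; the autosomes lie between -0.17 and -0.09 and X at 0.07. Right: median level of X pairs minus autosomal pairs in each HSPC library, for all pairs and by the group that brought them; Npm1c points lie above Flt3-ITD points in each class.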

How the data were processed

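Promoter-capture Hi-C was scored in 8 HSPC libraries. The authors deposited 1 interaction score per fragment pair and library, never negative; the caller, aligner and what the score is relative to are not given in the sources used here, and the genome build was mm10 per the submitters' processing notes. Depth is unknown, since the scores are not counts, and the spread between replicates alone limits the precision; p-values measure that spread only. Scores were tested as log2(score + 1), a scale on which changes of low scores are understated, with limma 3.58.1 in R 4.3.3 (two-sided, Benjamini-Hochberg at 0.05): promoters and the pairs at 5 or more in both replicates of WT or DM in the 4 single-mutant libraries, all listed pairs in 8. Single values were tested by exact permutation. Of 88624 listed pairs, 203 on other sequences were left out. Genes were assigned to baits by RefSeq start site (17491 genes) or, where no start was at hand, by either gene end (4405); 10771 had a bait. Promoters were named by lowest unadjusted p (12 each way) where none passed, pairs likewise (8 each way), with the highest and lowest member of each gene list and Npm1, Flt3, Meis1, Hoxa9, Myc and Cish; Sstr4, Thbd, Krtdap, Ffar1, Egr3, Fos, Jun, Bcl2, Bcl2l1, Ccnd1, Cd93, S100a8, Slc40a1, Gp1ba, Wdr53 and the H2bc14 bait were added with their values known. A list member that the naming rule picks is not reported here. The members and lists were chosen with earlier results of these data known. The fitting code was tested on simulated data.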

Additional observations from a re-analysis of the deposited data

How the results depend on the processing

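The comparisons were repeated with quantile normalization, library medians subtracted, a pseudocount of 0.5, asinh of the score, other pair minimums, other choices of pairs and each library left out. The count of promoters past the adjusted threshold stayed at 0 except for 1 with all 8 HSPC libraries and 1 with the median over pairs (Tinf2 in both), and it ranged from 1 to 240 with a library left out. For pairs from WT or DM it was 5 with all 8 HSPC libraries and 2 over pairs from both WT and DM. In the fits of all 8 libraries, the WT and DM values that chose these pairs enter the spread. The 376 calls over all listed pairs became 0 with the 4 libraries of both groups alone and ranged from 0 to 294 with a library left out; quantile normalization gave 226 higher and 259 lower. The labels do not say whether same-numbered libraries were handled together. Deviations of same-numbered libraries correlated at 0.08 over pairs and 0.13 over promoters, which cannot settle it. With the number as a replicate block the counts were 0 promoters, 0 pairs and 309 listed pairs. The difference by distance ranged from -0.67 to 0.093, turning sign without Npm1c replicate 1; the cause was not tested. Pairs at threshold in Npm1c and not Flt3-ITD numbered 562 at threshold 3, 392 at threshold 10 and 1792 after quantile normalization, and 2839 to 3475 with a library left out, where 1 library less has to pass. The reverse counts were 1664, 844 and 4755 to 8527. Quantile normalization makes the share at 5 or more equal in all libraries by construction, so it gave no value. The X and listing class contrasts and the pairs left out at 0 were chosen after seeing the data. Of 439 values of the named promoters, 0 turned sign. Many of these could not: the replicate block, all 8 libraries and lower pair minimums leave a promoter's difference unchanged. Most of the promoters were also chosen by p in these data, so a steady sign is part of the choice.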
